A study of Mus musculus with 6 samples.

Results

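The LPS co-receptors and the signalling proteins that carry a Toll-like receptor (TLR) signal into the cell were followed on 6 microarrays of J774A.1, an established macrophage-like line from Balb/c mice. The group was chosen by name as 10 genes: Cd14, Ly96, Myd88, Ticam1, Irak1, Irak2, Irak3, Irak4, Traf6 and Map3k7. Of these, 9 had a feature on the array paired with their symbol alone, each exactly 1 feature, out of 22180 genes measured in this way. Irak4 had none and was not analysed here. Control cells (3 arrays) received the phosphate-buffered saline vehicle for 18 h, and treated cells (3 arrays) received neuropeptide FF (NPFF), an amidated neuropeptide with G-protein-coupled receptors, at 1 nM in the same vehicle for 18 h. The sample titles call the control cells non-treated. The labels name no LPS or other TLR ligand in either group. All arrays came from a single cell line grown in medium with 10% serum to 80% confluence, and 500 ng of total RNA was used per sample.

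Macrophages recognise bacterial lipopolysaccharide (LPS) through a chain of proteins. CD14 hands LPS to MD-2, the product of Ly96, which sits on TLR4 and holds the lipid. The activated receptor recruits adaptors: MyD88, used by nearly all TLRs and by interleukin-1 receptors, and TRIF, the product of Ticam1, used by TLR3 and by TLR4 in endosomes. MyD88 assembles IRAK4 with IRAK1 or IRAK2, these engage the ubiquitin ligase TRAF6, and TRAF6 activates TAK1, the kinase encoded by Map3k7, which stands above the NF-kB and MAP kinase branches. IRAK3, also called IRAK-M, lacks effective kinase activity and restrains the pathway in monocytes and macrophages.

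No transcript of this group was called different between NPFF and control. Differences, given throughout as NPFF minus control on the log2 scale, ranged from -0.36 for Ly96 to 0.24 for Cd14, so that none exceeded 1.28-fold. Of the 9 transcripts, 4 had a positive difference (Cd14, Myd88, Irak1 and Traf6) and 5 a negative one (Ly96, Ticam1, Irak2, Irak3 and Map3k7). The median was -0.02, beside 0.00 over all genes. With limma over all genes and Benjamini-Hochberg adjustment, 0 of the 9 passed an adjusted p of 0.05, as did 0 of all 22180 genes (0%), and the smallest adjusted p among the 9 was 1.00. At an unadjusted p under 0.05, 0 of the 9 were found, against 2.51% of all genes. The 95% interval of every one of the 9 differences lay inside a 2-fold change in either direction. In Ticam1 and Map3k7 all NPFF arrays were below all controls, which is 2 of 9 beside 8.58% of all genes in either direction and 4.92% in the lower direction. In the other 7 the groups overlapped, so no member was apart in the higher direction, where the share of all genes was 3.67%. With arrays only median-centred, the members apart were Ly96 and Map3k7 in place of Ticam1 and Map3k7, all lower in NPFF. Of all genes, 6.28% were then apart in either direction, and 1028 of 22180 were apart and lower. As deposited, only Map3k7 was apart, 1 of 9 beside 7.43% of all genes in either direction. Cyclic loess gave Ticam1 and Map3k7 again, beside 10.3% of all genes in either direction. With 3 arrays against 3, complete separation corresponds to a two-sided exact permutation p of 0.10, the smallest this design allows. The arrays measured RNA from whole cultures, so fewer expressing cells and less RNA per cell cannot be told apart.

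**Figure D1:**
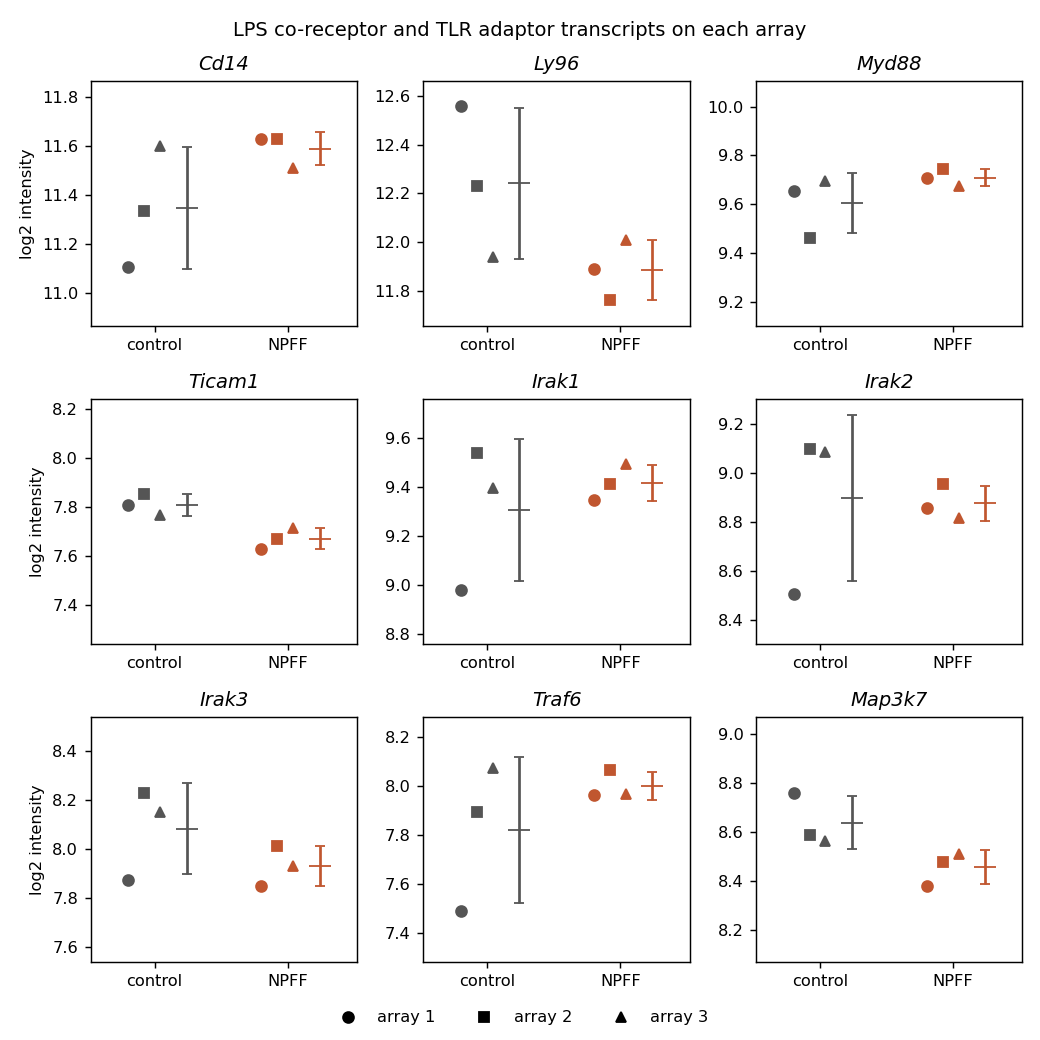
Log2 intensity of the 9 measured transcripts on each array, with control arrays in grey, NPFF arrays in orange, the marker shape giving the array number and the bar the mean ± SD of 3 arrays. Every panel spans 1 log2 unit. The NPFF arrays lie close together, the controls spread widely in Cd14, Ly96, Irak1, Irak2 and Traf6, and the groups are apart only in Ticam1 and Map3k7.

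The arrays themselves differed in a way that touches these values. Control 1 stood farthest from the others, with an SD over all genes of 0.37 from the mean of the other 5 arrays, followed by control 2 at 0.21, while the other 4 arrays lay between 0.11 and 0.13. The SD of a transcript was larger in control than in NPFF in 9 of the 9 members, with medians of 0.25 and 0.07, and in 80.4% of all genes. Control 1 was the highest or the lowest of the 6 arrays in 6 of the 9 members and in 72.9% of all genes. The range over the controls exceeded the size of the difference in 8 of the 9 and in 93.4% of all genes. For the members whose difference moved most without control 1, the value with it left out is given beside the gene. All 8 macrophage markers looked for (Adgre1, Cd68, Csf1r, Itgam, Fcgr1, Lyz2, Mertk and Spi1) had a brightness between the 58.8th and the 99.9th percentile of all genes, with a median of 94.7, whereas 19 markers of lymphocytes, neutrophils, fibroblasts, epithelium and endothelium had a median of 29.4 and reached 62.7. The 9 transcripts themselves lay between the 68.8th and the 99.4th percentile, so none was among the dim features; a percentile describes the brightness of a feature and is no measure of one transcript against another.

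**Figure D2:**
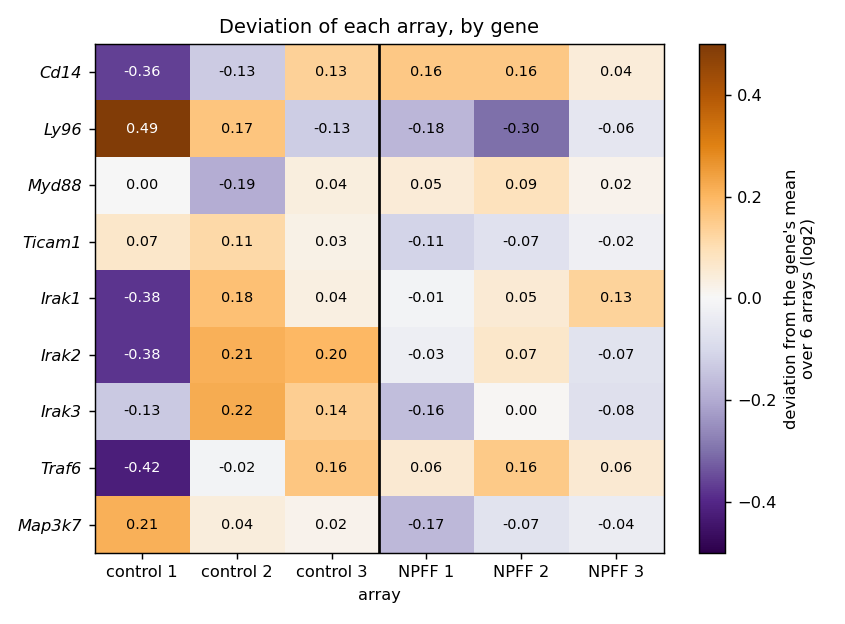
Deviation of each array (columns) from a transcript's own mean over the 6 arrays (rows), in log2 units, with orange above and purple below that mean. Control 1 holds the most extreme values, from -0.42 for Traf6 to 0.49 for Ly96, and the NPFF arrays stay between -0.30 and 0.16.

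At the receptor, the 2 LPS-binding proteins that serve TLR4 had differences of opposite sign. Cd14 (feature 17353747), the surface protein that passes LPS on, measured 11.10, 11.34 and 11.60 in controls 1 to 3 and 11.63, 11.63 and 11.51 in the NPFF arrays. Control 3 lay inside the NPFF range and the other controls below it. The means were 11.35 ± 0.25 and 11.59 ± 0.07 (SD, n = 3 each), a difference of 0.24 (SE 0.13, 95% interval -0.07 to 0.55) or 1.18-fold. Without control 1 it was 0.12, without control 3 it was 0.37, and against control 3 alone it was -0.01, so the size of the Cd14 difference depended on which controls were used.

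Ly96 (feature 17211286), which encodes MD-2, measured 12.56, 12.23 and 11.94 in controls 1 to 3 and 11.89, 11.76 and 12.01 in NPFF 1 to 3. Again control 3 lay among the NPFF arrays, and controls 1 and 2 lay above all of them. The means were 12.24 ± 0.31 and 11.89 ± 0.12 (SD, n = 3 each), a difference of -0.36 (SE 0.16, 95% interval -0.74 to 0.03), the largest in size of the group. It was -0.20 without control 1, -0.51 without control 3 and -0.05 against control 3 alone.

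The order of the arrays was reversed between the pair. From the lowest to the highest, Ly96 ran NPFF 2, NPFF 1, control 3, NPFF 3, control 2 and control 1, and Cd14 ran through the same arrays from highest to lowest, with NPFF 1 and NPFF 2 tied. The signal of Cd14 minus that of Ly96 within an array was -1.45, -0.89 and -0.34 in controls 1 to 3 and -0.26, -0.13 and -0.50 in NPFF 1 to 3. Control 3 again fell inside the NPFF range. This pattern was picked out after the values were seen and is given without a test; the 6 arrays share their normalization, and controls 1 and 2 were also the arrays farthest from the rest over all genes.

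**Figure D3:**
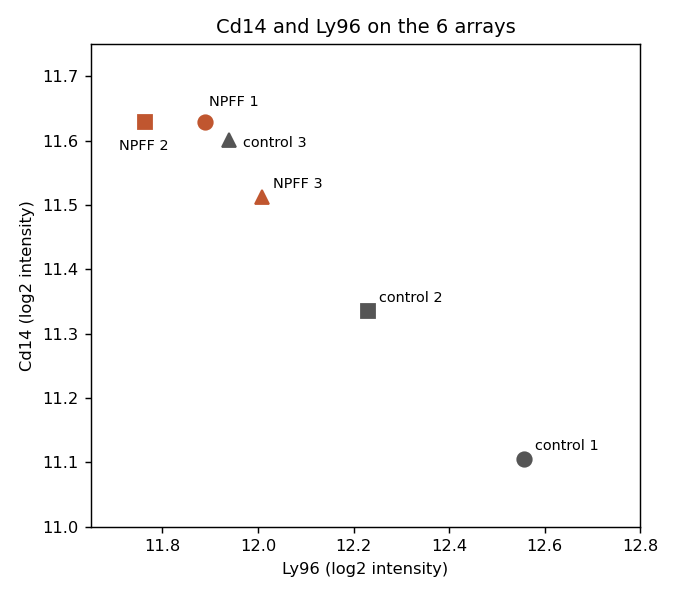
Log2 intensity of Cd14 (vertical axis) against Ly96 (horizontal axis), 1 point per array, with controls in grey and NPFF in orange. Control 3 (Ly96 11.94, Cd14 11.60) sits among the NPFF arrays, and controls 2 and 1 lie below and to the right of them.

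TLR4 itself, the receptor that the MD-2 protein serves, measured 8.97, 8.89 and 9.06 in controls 1 to 3 and 9.01, 8.99 and 9.04 in NPFF 1 to 3 (Tlr4, difference 0.04, SE 0.07). Its groups overlapped, and the sign turned without control 2 (-0.003) and against control 3 alone (-0.04). Lbp, the serum protein that delivers LPS to CD14, had a difference of -0.01 (SE 0.08). Cd180 and Ly86, a receptor pair related to TLR4 and MD-2, had differences of -0.15 (SE 0.08) and -0.12 (SE 0.07), both with overlapping groups. The Ly86 groups were apart, lower in NPFF, when arrays were only median-centred. Cd180 and Ly86 are given as the closest relatives of the TLR4 and MD-2 pair among the genes listed for comparison.

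Of the adaptors, Myd88 (feature 17532137) measured 9.66, 9.46 and 9.70 in controls 1 to 3 and 9.71, 9.75 and 9.68 in NPFF 1 to 3. Control 2 was the lowest array and control 3 lay inside the NPFF range. The means of 9.60 ± 0.12 and 9.71 ± 0.03 (SD, n = 3 each) gave a difference of 0.10 (SE 0.08, 95% interval -0.09 to 0.30). Without control 1 the Myd88 difference was 0.13, without control 2 it was 0.03, and against control 3 alone it was 0.01.

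Ticam1 (feature 17346210), the TRIF adaptor, measured 7.81, 7.86 and 7.77 in controls 1 to 3 and 7.63, 7.67 and 7.72 in NPFF 1 to 3. Here the spread was alike in both groups and the groups did not overlap, with a gap of 0.05 between the lowest control and the highest NPFF array. The means were 7.81 ± 0.04 and 7.67 ± 0.04 (SD, n = 3 each), a difference of -0.14 (SE 0.06, 95% interval -0.29 to 0.01), or 0.908 of the control level. The 3 NPFF arrays departed from the control mean by -0.18, -0.14 and -0.09. With single arrays left out the Ticam1 difference stayed between -0.16 and -0.12, and it was -0.10 against control 3 alone. The Ticam1 groups overlapped when no further normalization was applied and when arrays were only median-centred, and the difference lay between -0.14 and -0.11 under the other scalings.

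The remaining adaptors of TLR4 were not called either. Tirap, which bridges MyD88 to the receptor, and Ticam2, which bridges TRIF to it, had differences of 0.22 (SE 0.21) and 0.28 (SE 0.33). Ticam2 was 7.27 in control 1 and between 8.29 and 8.54 on the other 5 arrays. Without control 1 the differences turned to -0.03 for Tirap and -0.13 for Ticam2.

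In the IRAK kinases control 1 lay at or near the lower end of the arrays. Irak1 (feature 17542546) measured 8.98, 9.54 and 9.40 in controls 1 to 3 and 9.35, 9.41 and 9.49 in NPFF 1 to 3, so that control 1 was the lowest and control 2 the highest of all. The difference was 0.11 (SE 0.15, 95% interval -0.24 to 0.46) and was -0.05 without control 1 and 0.23 without control 2. Irak2 (feature 17461807), the relative that sustains late signalling, measured 8.50, 9.10 and 9.08 in controls 1 to 3 and 8.86, 8.95 and 8.82 in NPFF 1 to 3. Controls 2 and 3 lay above every NPFF array and control 1 below every one, which gave a difference of -0.02 (SE 0.17, 95% interval -0.42 to 0.38). Without control 1 it was -0.22, and without control 2 it was 0.08.

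Irak3 (feature 17245399), the inhibitory member, measured 7.87, 8.23 and 8.15 in controls 1 to 3 and 7.85, 8.01 and 7.93 in NPFF 1 to 3. As in Irak2, controls 2 and 3 lay above all NPFF arrays, and control 1 lay at their lower end. The means were 8.08 ± 0.19 and 7.93 ± 0.08 (SD, n = 3 each), a difference of -0.15 (SE 0.11, 95% interval -0.41 to 0.10). It was -0.26 without control 1 and -0.08 without control 2, and -0.22 against control 3 alone. Without control 1 the adjusted p by limma over all genes was 0.363 for Irak3 and 0.374 for Irak2, and neither was called. The members whose groups were then apart were Ticam1, Map3k7, Irak2 and Irak3, all lower in NPFF, where 27.3% of all genes were apart in either direction. Of all 22180 genes, 4060 were then apart and lower. With control 3 left out instead, 6 of the 9 were apart, 3 higher (Cd14, Myd88 and Traf6) and 3 lower (Ly96, Ticam1 and Map3k7), beside 18.8% of all genes, and the smallest adjusted p among them was 0.936.

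Downstream of the IRAKs, Traf6 (feature 17373644) measured 7.49, 7.89 and 8.07 in controls 1 to 3 and 7.96, 8.06 and 7.97 in NPFF 1 to 3. Control 1 was far below the rest and control 3 was the highest array. The difference was 0.18 (SE 0.15, 95% interval -0.18 to 0.54), but 0.02 without control 1, 0.31 without control 3 and -0.07 against control 3 alone.

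Map3k7 (feature 17412350), which encodes TAK1, measured 8.76, 8.59 and 8.57 in controls 1 to 3 and 8.38, 8.48 and 8.51 in NPFF 1 to 3. All NPFF arrays were below all controls, again by a gap of 0.05. The means were 8.64 ± 0.11 and 8.46 ± 0.07 (SD, n = 3 each), a difference of -0.18 (SE 0.08, 95% interval -0.37 to 0.01), or 0.882 of the control level. The 3 NPFF arrays departed from the control mean by -0.26, -0.16 and -0.13. The Map3k7 difference was -0.12 without control 1, where the size fell by over 1.5 times, and -0.11 against control 3 alone. Its groups did not overlap under any of the scalings of the arrays run (as deposited, quantile, cyclic loess and median-centred), with differences between -0.20 and -0.16 under the other 3. The TAK1 partner Tab1 had a difference of 0.19 (SE 0.19), and Tab2 and Tab3 had differences of -0.04 and -0.02. All 3 changed sign without control 1, at -0.04 for Tab1, 0.02 for Tab2 and 0.04 for Tab3.

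**Figure D4:**
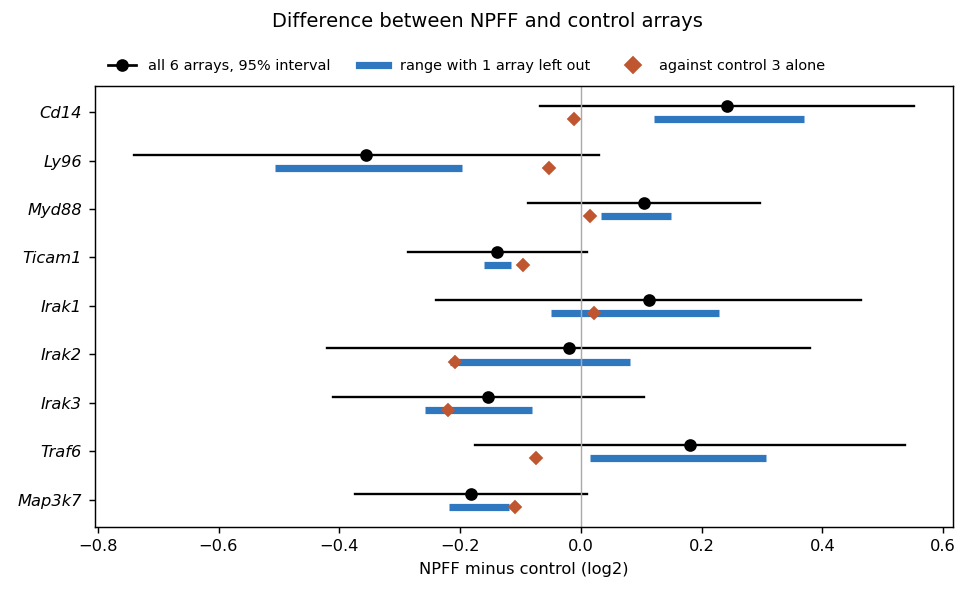
Difference between NPFF and control (log2) for the 9 transcripts, with the 95% interval of the limma fit in black, the range over fits with 1 array left out in blue and the value against control 3 alone as an orange diamond. Every black interval includes 0, and Irak1 and Irak2 have blue ranges on both sides of 0.

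The upstream sequences of Ticam1 and Map3k7 are shown because these were the members whose groups did not overlap. They are the 250 bases before the annotated start, from RefSeq on GRCm38.p6, where Ticam1 lies on the minus strand at chr17:56276768-56277017 and Map3k7 on the plus strand at chr4:31963857-31964106, each written 5′ to 3′ on the gene's strand. Capitals mark a match to the NF-kB consensus motif, searched on both strands, with a site that matched on both counted once.
Ticam1: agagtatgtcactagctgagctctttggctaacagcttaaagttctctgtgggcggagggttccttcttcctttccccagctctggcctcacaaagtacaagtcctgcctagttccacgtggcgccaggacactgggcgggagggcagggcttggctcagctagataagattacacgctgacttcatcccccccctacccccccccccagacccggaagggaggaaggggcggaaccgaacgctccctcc
Map3k7: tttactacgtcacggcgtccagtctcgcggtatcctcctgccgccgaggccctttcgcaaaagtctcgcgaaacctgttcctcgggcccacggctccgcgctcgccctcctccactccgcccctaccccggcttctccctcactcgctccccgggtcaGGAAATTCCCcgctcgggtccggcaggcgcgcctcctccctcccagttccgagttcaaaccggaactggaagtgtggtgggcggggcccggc
The match in Map3k7 began at position -92 from the start, and Ticam1 had none in this window. Of the measured members, 7 had an entry in the promoter table, with 9 starts. A match lay before 3 of these 9 starts, 1 of Map3k7 and 2 neighbouring ones of Irak1 that share a single site, beside 7.25% of all 32851 promoters of the table. The motif GAGGAAGT of the macrophage factor PU.1 was found before 0 of the 9 and in 2.44% of all. The Map3k7 window was 68.0% G and C with a ratio of observed to expected CpG of 1.03, and that of Ticam1 59.6% with 0.41, beside medians of 52.4% and 0.37 over all promoters. The arrays did not measure these windows, and a match is a description of the letters.

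The other genes of the pathway were taken from 9 lists by role, with 66 of 73 genes measured. With limma over all genes 0 of the 66 passed the adjusted threshold. At an unadjusted p under 0.05 there were 5, of which 1 was higher and 4 lower, and in 8 of 66 (12.1%) the groups did not overlap, beside 8.58% of all genes. By sign, 36 were higher and 30 lower, with a median of 0.03, where 11457 of all 22180 genes were higher. Without control 1 the split was 15 higher and 51 lower, with a median of -0.06, where 8670 of all 22180 genes were higher. The count of genes above 0 thus changed with 1 control array, in this pathway and over all genes.

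Among the receptors, 10 of 12 TLR transcripts had negative differences (9 or 10 under the other scalings) with a median of -0.12. Of all 22180 genes, 10723 had negative differences. Against control 3 alone, 8 of the 12 were negative, beside 11539 of all genes. In 3 of 12, beside 4.92% of all genes in this direction, the NPFF arrays were below all controls: Tlr8, Tlr9 and Tlr3, the last named after its values were seen. Under no further normalization and under median centring alone, the Tlr9 groups overlapped and those of Tlr8 and Tlr3 did not. These 3 sense nucleic acids in endosomes, as do Tlr7 and Tlr13, whose differences of -0.17 (SE 0.13) and -0.11 (SE 0.14) came with overlapping groups and were -0.05 and -0.27 without control 1. Negative differences were not particular to these sensors. Tlr1 and Tlr5 had differences of -0.23 (SE 0.17) and -0.14 (SE 0.13) with overlapping groups, which were -0.04 and -0.02 without control 1. Only Tlr4 (0.04) and Tlr12 (0.06) had positive differences. Tlr8 measured 8.61, 8.32 and 8.42 in controls 1 to 3 and 7.99, 8.07 and 8.13 in NPFF 1 to 3, a difference of -0.39 (SE 0.09). Tlr9 had a difference of -0.26 (SE 0.10) and Tlr3 one of -0.38 (SE 0.16). Without control 1 these were -0.30, -0.30 and -0.20.

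In the IKK and NF-kB list, 6 of 8 measured genes had positive differences, but 3 of 8 without control 1. Rel, an NF-kB subunit, stood apart from this with 10.86, 10.68 and 10.58 in controls 1 to 3 and 10.34, 10.26 and 10.45 in NPFF 1 to 3. Its difference was -0.36 (SE 0.10), between -0.42 and -0.28 with single arrays left out, and the groups did not overlap. Nfkbib, an inhibitor of NF-kB, had a difference of 0.12 (SE 0.07) with no overlap, which was 0.06 without control 1. The Nfkbib groups overlapped under no further normalization and under median centring, while those of Rel were apart under all 4 scalings. Of the MAP kinase branch, the stress kinase Mapk8 had a difference of -0.11 (SE 0.07) and Mapkapk2, a kinase downstream of p38, one of 0.08 (SE 0.06). Their groups were apart after quantile normalization and overlapped under each of the other 3 scalings, and without control 1 Mapk8 was at -0.06 and Mapkapk2 at 0.08. Among the brakes on the pathway, Trafd1, a TRAF-interacting feedback inhibitor, measured 8.26, 8.64 and 8.68 in controls 1 to 3 and 8.90, 8.81 and 8.80 in NPFF 1 to 3. Its difference of 0.31 (SE 0.12) was 0.17 without control 1, and the groups were apart under all 4 scalings. Of the 9 measured brakes 6 were higher and 3 lower, but 2 and 7 without control 1. Then 6 of the 9 were apart, 1 higher and 5 lower, beside 27.3% of all genes in either direction. Tnfaip3 and Sigirr had differences of -0.17 (SE 0.11) and -0.17 (SE 0.12) with overlapping groups. Under cyclic loess Tnfaip3 was apart and lower, where 10.3% of all genes were apart. By limma the adjusted p of each of these genes was 1.00.

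In the other lists no gene was apart after quantile normalization. Other scalings set some apart: Hsp90b1 was higher, and Il1rap lower, both as deposited and median-centred. Tab2 and Tank were apart and lower as deposited, and Ly86 when median-centred. Of all genes, 7.43% were apart as deposited and 6.28% when median-centred. The chaperones and LPS-handling genes were 4 higher and 3 lower, the TAK1 and ubiquitin genes 5 and 5, the TRIF branch 4 and 1, the other adaptors 3 and 1, and the interleukin-1 receptor family that uses MyD88 2 and 2. Their medians ranged from -0.01 to 0.13. Without control 1 the same lists were 2 and 5, 4 and 6, 0 and 5, 0 and 4, and 1 and 3 in that order, so the TRIF branch and the other adaptors had no gene above 0. Chuk, Nfkb1, Map2k7, Traf3, Ripk1, Irf5 and Il1rl1 had no feature paired with their symbol alone and were not analysed here.

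**Figure D5:**
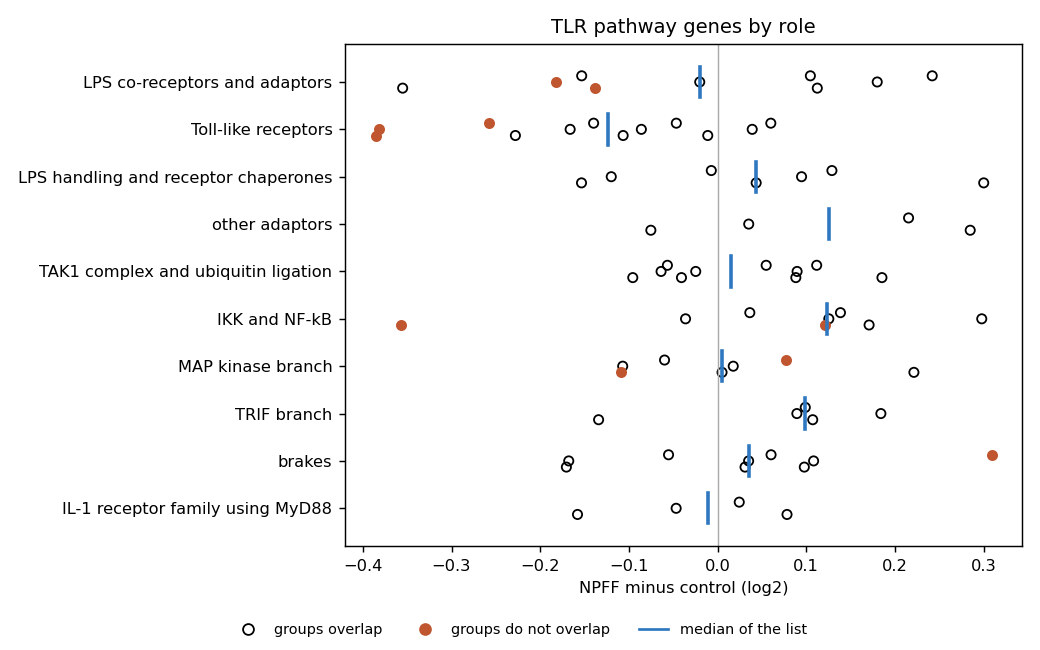
Difference between NPFF and control (log2) of each measured gene, by role, with the co-receptors and adaptors in the top row, filled orange points for genes whose groups did not overlap and a blue line at the median of each list. Filled points stand on both sides of 0, from -0.39 for Tlr8 to 0.31 for Trafd1, and none passed the adjusted test.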

How the data were processed

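The authors deposited log2 intensities per transcript cluster for 6 arrays, with values between 4.59 and 14.00. The sources used here name no background correction, normalization or genome build; the targets were biotin-labelled, per the labels' protocols. Of 33794 features, 23521 had 1 gene symbol in the platform annotation, 1814 several and 8459 none. Because the sorted values of the arrays departed from their mean by up to 0.17, all features were quantile-normalized. The brightest feature per gene was kept (22180 genes). Groups came from the sample titles, which call the replicates biological; nothing says whether they were separate cultures, so p-values cover only the spread between the arrays, which may be technical. NPFF and control were compared with limma 3.58.1 in R 4.3.3 on group alone (4 residual and 2.49 prior degrees of freedom), with two-sided tests and p-values adjusted by Benjamini-Hochberg across all genes (threshold 0.05). The fit was tested on simulated data with the same spread for every gene and array. That test does not cover the wider spread of the control arrays here. Array number limits the precision. The members and pathway lists were chosen with earlier results of these data known. Genes named outside the group were Tlr4, Lbp, Tirap, Ticam2, Tab1 and up to 2 per list with the smallest p among those without overlap. Tlr1, Tlr3, Tlr5, Tlr7, Tlr12, Tlr13, Cd180, Ly86, Tab2, Tab3, Hsp90b1, Il1rap, Tank, Tnfaip3 and Sigirr were added after the values were seen. Alternatives covered scaling, a filter on the dimmest 25% of genes, the mean over a gene's features, a replicate block, no moderation, array weights, and left-out arrays.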

Additional observations from a re-analysis of the deposited data

How the results depend on the processing

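In 135 refits of the 9 members under 15 alternatives, none passed the adjusted threshold. The sign turned in 8. The filter on the dimmest genes, the mean over a gene's features, the replicate block and no moderation left each member's difference unchanged. Under these the sign could not turn. Against control 3 alone, Cd14 was -0.0119 and Traf6 -0.0738; that fit assumes that the lone control varies like the NPFF arrays. With gene-by-gene array weights (limma), Irak1 was -0.00638 and Traf6 -0.0119. The weights were 0.121, 0.805 and 2.37 for controls 1 to 3, and between 1.44 and 2.00 for the NPFF arrays. That fit therefore leaned on control 3 and little on control 1, and is not independent of the fits that leave controls out. With single arrays left out, Irak1 ranged from -0.0500 to 0.229 and Irak2 from -0.216 to 0.0816. The number of members higher in NPFF was 4. It was 3 without control 1, and 5 when control 2, control 3 or NPFF 3 was left out in turn. With array weights and against control 3 alone it was 2, and in the remaining alternatives 4. The members' median ranged from -0.12 to 0.07 over all alternatives, which is within 1 SD between replicates (0.125) of the reported value. The count of all genes past the adjusted threshold was 0 in each alternative, with 396 at an unadjusted p under 0.05 with the replicate block, 724 without moderation, 1866 with array weights and 2397 without control 1, beside 556. Of the 9 members, 3 reached that unadjusted level with array weights, beside 1866 of all 22180 genes. It was 2 without control 1 (2397 of all genes) and 2 without control 3 (937). It was 1 each as deposited (499 of all genes), with median centring (371) and without moderation (724), and 0 in 8 further alternatives. The fit against control 3 alone is left out of these member counts, because a lone control shows no spread. With the replicate block the members' differences were the same and 0 passed. Arrays of equal number correlated in their deviations from the group mean at 0.23, 0.45 and -0.33. Of the 6 arrays, 3 correlated best with their own number. Deviations within a group of 3 are tied to one another, so these values cannot settle whether the numbers mark pairs. Every member has a single feature, so no other feature of a member could be tried.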
